A study of Mus musculus with 6 samples.

Results

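Heat shock proteins were followed in the livers of nude mice given vesicles of a human colorectal cancer line. The genes were chosen by name: the small heat shock proteins Hspb1 and Hspb8, the HSP70 chaperones Hspa1a, Hspa1b and Hspa8, their partners Hsph1 and Dnajb1, the mitochondrial chaperonin genes Hspd1 and Hspe1, and the HSP90 gene Hsp90aa1. These 10 genes are read by 20 probes, out of 56605 probes with 37074 gene names on the array. The probe names are those of the array design, and all probes of each gene were taken. The sEV group (small extracellular vesicles) was given purified vesicles of SW620 cells by tail vein, 20 µg at each of 10 injections spread over 21 days. The control group was given sterile PBS on that schedule, so the comparison holds no vesicles from another source. All mice were of the labelled nude background, a strain that has no thymus and lacks mature T cells, and groups held 5 mice each, of which 3 gave a liver to the arrays. Per the design text, the sEV mice among these were a random choice. Age and sex are not given in the labels used here. The question is whether repeated exposure to the vesicles was accompanied by a change in the RNA of the chaperone system.

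Heat shock proteins are molecular chaperones that hold, fold or refold other proteins. Small heat shock proteins bind unfolding proteins without using ATP, the HSP70 machine refolds them with the help of J-domain proteins and nucleotide exchange factors, the chaperonin of mitochondria encloses them, and HSP90 completes the folding of kinases and hormone receptors. Many of these genes are induced by the transcription factor HSF1, which binds as a trimer to heat shock elements, arrays of short GAA units in alternating orientation. In liver they are known to be raised by heat, by oxidants and by ischaemia.

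Heat shock elements in the promoters of the measured genes are shown first, since they are the sequence that the family is known for. Windows of 30 bases from the RefSeq promoter set (assembly GRCm38.p6, 300 bases around each gene's start) are printed 5′ to 3′ on the gene's strand, with the matched letters in capitals. The search was for the letters GAANNTTC or TTCNNGAA (2 units), and for GAANNTTC followed by NNGAA or TTCNNGAA followed by NNTTC (3 units), which reads both strands, and a match of 3 units also holds matches of 2 units.
Hspb1, first match, chr5:135887791-135887820, plus strand: cttcaacaagaGAAGTTTCcagatgggggc
Hspb1, next match, chr5:135887811-135887840, plus strand: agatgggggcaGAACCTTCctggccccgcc
Hspb8, chr5:116422844-116422873, minus strand: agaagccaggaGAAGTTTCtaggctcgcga
Hspa1a, chr17:34972242-34972271, minus strand: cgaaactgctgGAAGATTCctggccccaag
Hspa1b, chr17:34959324-34959353, minus strand: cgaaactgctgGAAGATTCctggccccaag
Hsph1, chr5:149636280-149636309, minus strand: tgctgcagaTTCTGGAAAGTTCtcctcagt
Hspd1, chr1:55088053-55088082, minus strand: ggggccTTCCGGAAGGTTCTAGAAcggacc
Hspe1, chr1:55088053-55088082, plus strand: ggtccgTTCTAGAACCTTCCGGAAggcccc

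Of the 8 genes with an entry in that set, 7 held a match of 2 units and 3 held a match of 3 units, Hsph1, Hspd1 and Hspe1. Over all 27025 genes in the set, 16.97% held 2 units and 0.662% held 3 units in such a window. Dnajb1 held none of these letters in its windows. Hspa8 and Hsp90aa1 had no entry. Counted from the transcript start, the Hspb1 matches began at -117 and -97 and that of Hspb8 at 3 (within the transcript). Those of Hspa1a and Hspa1b both began at -104. The printed Hsph1 match began at 16 or 37, by which of its 2 starts is taken, and lies within the transcript. A further Hsph1 match of 2 units, not printed, began at -54 or -33. The windows of Hspa1a and Hspa1b, neighbouring near-identical genes, differed at 4 of 300 bases. Hspd1 and Hspe1 are transcribed away from each other, and a single stretch of 18 bases between them carried the match of both, read on opposite strands. A match describes letters and does not show that a factor is bound there. Both genes that rose held 2 units, as did 5 of the 6 others with an entry.

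Array signals were scaled by dividing each by its array's 75th percentile and taking log2, so that a level of 0 is the 75th percentile of that array and a step of 1 is a doubling. Levels of different probes are not compared, since probes differ in how brightly they read. The groups were compared with limma over all 19447 genes that had a probe well above background on 3 or more of the 6 arrays, taking the brightest probe of each gene, with p-values adjusted over all of these genes by the Benjamini-Hochberg method. The ± after a fold change is its standard error. All 10 genes and 19 of their 20 probes passed that filter. The remaining probe, A_55_P2352652 of Hsp90aa1, was well above background on 0 of the 6 arrays. Between 49.9% and 53.3% of spots were well above background on sEV arrays, and between 50.9% and 54.7% on control arrays. All 8 hepatocyte markers examined were well above background on every array, and their summed level was 3962 to 4568 in sEV livers against 3472 to 3733 in control livers in units of the array's 75th percentile. Among them Tat (1.20), Cps1 (0.85) and Hnf4a (0.54) rose, where 9.08% of all genes rose. The other 5 did not pass, including Alb, the albumin gene, at 0.15 on the log2 scale (limma adjusted p = 0.496). A sum weighs bright probes most, so this one is led by genes such as Alb and not by those that rose. Precision is limited by the number of arrays.

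The small heat shock protein genes Hspb1 and Hspb8 rose in sEV livers, and the other 8 genes did not pass an adjusted p of 0.05. The share of all genes that passed in the upward direction was 9.08%, in the downward direction 7.95% and in either direction 17.0%, against 2, 0 and 2 of 10 here. The median log2 fold change was 0.18 over the 10 genes and 0.03 over all genes tested. The log2 fold change was positive for 8 of the 10 genes and for 10424 of all 19447 genes tested. The livers of the groups did not overlap for 5 of the 10 genes, against 40.9% of all genes, and in 4 of these 5 the sEV livers were the higher ones. The share of all genes by direction was not counted for this measure, so no upward lean is read from that split. Without adjustment 3 of the 10 genes lay under the same threshold, the third being Hsph1. The share of all genes under it without adjustment was not counted. That share is at least the 17.0% that passed after adjustment, so no excess is read from these 3 genes. Read by probe, 2 of 19 rose and 0 fell, against 7.62% higher, 6.50% lower and 14.1% in either direction among the 28766 probes tested. The groups did not overlap for 6 of the 19 probes, against 39.0% of all probes.

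**Figure D1:**
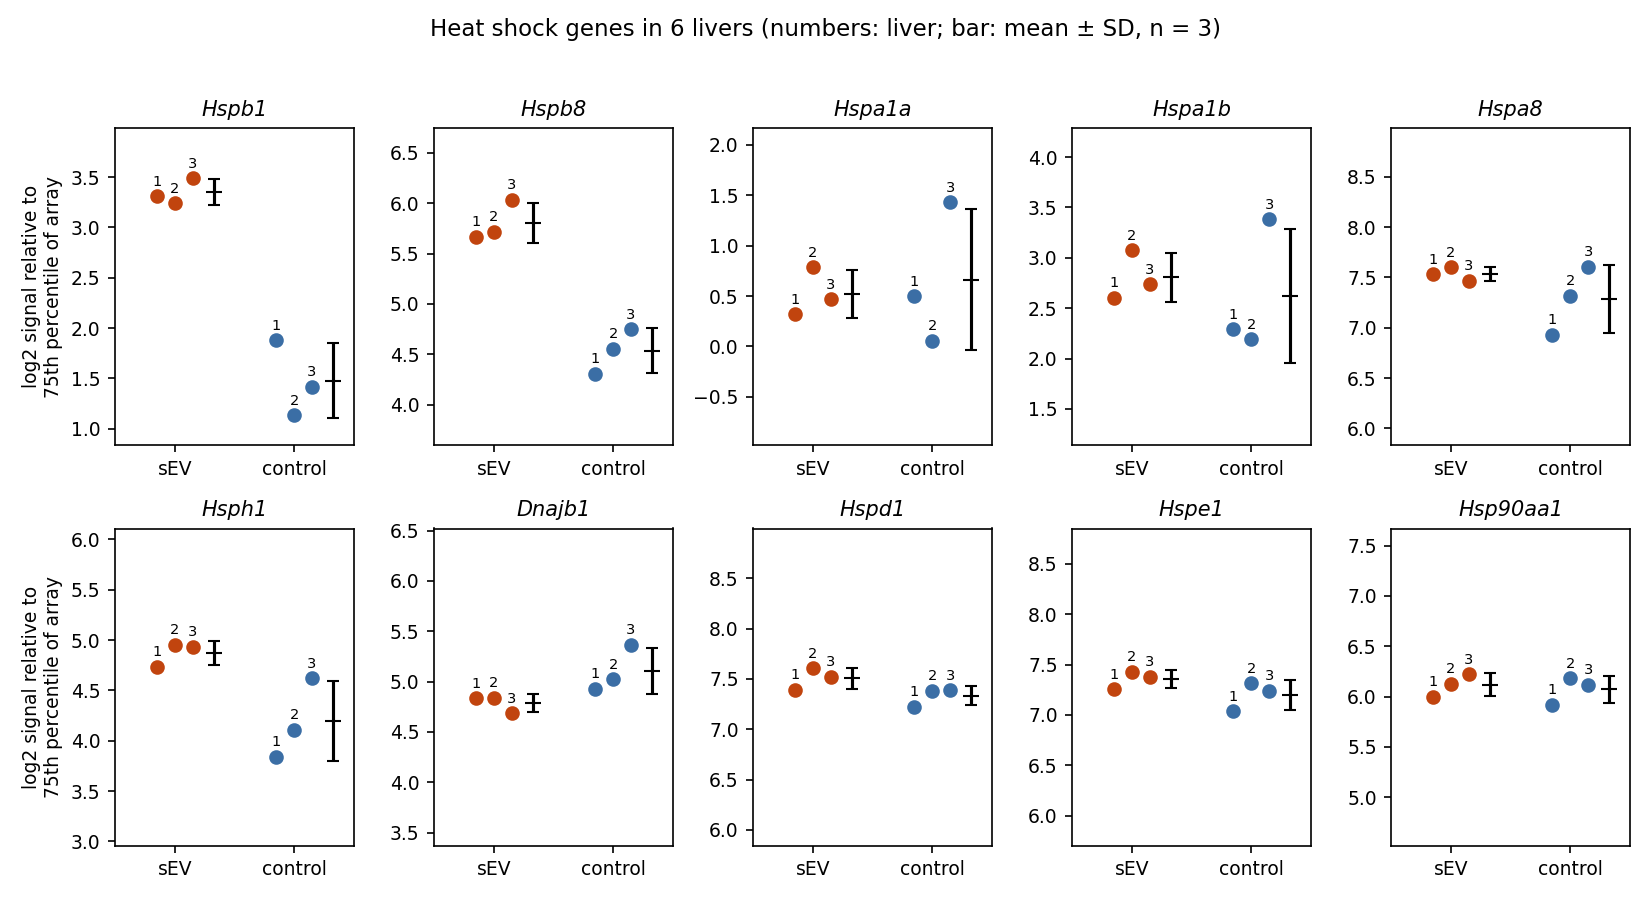
Log2 signal relative to the 75th percentile of the array (vertical axis) of each heat shock gene in 3 sEV and 3 control livers, with the liver's number over each point and the mean ± SD beside it (n = 3 per group). All panels span the same height on the log2 scale. The sEV points of Hspb1 and Hspb8 lie above all control points, while those of Hspa1a, Hspa1b, Hspa8, Hspe1 and Hsp90aa1 lie within or across the control range.

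Hspb1 encodes a small heat shock protein that binds unfolding proteins and actin filaments. Its processed signal was 2794, 2528 and 3101 in sEV livers 1, 2 and 3, against 1246, 648 and 878 in control livers 1, 2 and 3. On the scaled log2 level these were 3.31, 3.24 and 3.49 in sEV livers, against 1.88, 1.14 and 1.42 in control livers. Every sEV liver lay above every control liver, and the sEV livers were close together while control 1 stood above the other controls. The log2 fold change was 1.87 ± 0.19 with a 95% interval of 1.40 to 2.34, a 3.66-fold difference (limma adjusted p = 0.00385). Its 1 probe lies at chr5:136365366-136365425 of mm9, plus strand.

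Hspb8 encodes a small heat shock protein that works with the exchange factor BAG3 in removing misfolded proteins by autophagy. Its scaled log2 level was 5.67, 5.72 and 6.03 in sEV livers, against 4.31, 4.56 and 4.75 in control livers. The groups were again separate, with sEV 3 the highest and control 1 the lowest liver. This amounted to a log2 fold change of 1.27 ± 0.15 with a 95% interval of 0.90 to 1.64, a 2.41-fold difference (limma adjusted p = 0.00569). Its 1 probe lies at chr5:116859063-116859122 of mm9, minus strand. Each of the 2 calls thus rests on 1 probe, and no exon annotation of that build was used here.

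Position on the slide is partly shared with the groups. Row 1 of the slide held every control array together with sEV 1, and row 2 held sEV 2 and sEV 3, so a fit with the row as a block rests on sEV 1 for its contrast. With that block the difference was 1.83 for Hspb1 (limma adjusted p = 0.0413) and 1.13 for Hspb8 (adjusted p = 0.0606). Within row 1 alone the same values had adjusted p = 0.0563 for Hspb1 and 0.0666 for Hspb8. The count of genes that rose was then 1 with the block and 0 within row 1. In those fits 715 and 594 of all genes passed, against 3313 without the row. Leaving out any 1 liver kept both genes past the threshold. Over 18 alternatives the values ranged from 1.70 to 2.07 for Hspb1 and from 1.13 to 1.38 for Hspb8.

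The inducible HSP70 genes Hspa1a and Hspa1b, the classical heat-inducible members of the family, did not pass the test, and their control livers were widely spread. Hspa1a had scaled log2 levels of 0.32, 0.78 and 0.47 in sEV livers, against 0.50, 0.06 and 1.43 in control livers. Hspa1b had 2.61, 3.08 and 2.74 in sEV livers, against 2.29, 2.19 and 3.38 in control livers. For both genes control 3 was the highest of the 6 livers, and the sEV livers lay between the control extremes. The log2 fold change was -0.14 for Hspa1a (95% interval -0.98 to 0.69, limma adjusted p = 0.804) and 0.19 for Hspa1b (95% interval -0.61 to 0.98, adjusted p = 0.725). These intervals leave room for a difference in either direction. The probes are distinct in letters, sharing no run of letters longer than 5 of their 60 bases, and cross-hybridisation between these near-identical transcripts was not tested. The Hspa1a probe is placed at chr17:35106766-35106825 and the Hspa1b probe at chr17:35093374-35093405 of mm9, both on the minus strand, the second interval covering 32 bases of a probe of 60.

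Control 3 decided the sign of Hspa1a. Without that liver its log2 fold change was 0.24 (limma adjusted p = 0.483) and that of Hspa1b was 0.57 (adjusted p = 0.0968). Without control 2, Hspa1b stood at -0.03 (adjusted p = 0.966), and with slide row as a block at -0.02 (adjusted p = 0.989). The SD over the 3 sEV livers was 0.24 for each gene, against 0.70 for Hspa1a and 0.66 for Hspa1b over the 3 control livers. In the controls 98.5% of all genes had a smaller SD than Hspa1a and 98.3% a smaller one than Hspa1b. The median SD over all genes was 0.140 in sEV livers and 0.128 in control livers.

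Control 3 was the highest control for 7 of the 10 heat shock genes, and for 31.2% of all genes tested. Its log2 level minus the mean of controls 1 and 2 was 1.16 for Hspa1a, 1.14 for Hspa1b, 0.65 for Hsph1, 0.48 for Hspa8, 0.39 for Dnajb1 and 0.32 for Hspb8. For Hspb1 it was -0.09, so that gene did not share the pattern. The median difference was 0.35 over the heat shock genes, 0.16 over 16 other known HSF1 target genes and 0.01 over all genes. Among those HSF1 targets control 3 was the highest control for 10 of 16, including Bag3 (0.54), which encodes an HSP70 exchange factor, Dnaja1 (0.41), a J-domain partner of HSP70, and Chordc1 (0.37), an HSP90 co-chaperone. The difference was negative for Serpinh1 (-0.32) and Cryab (-0.28). These targets were chosen with the results of these arrays known, and those named here were picked after their values were seen. The summed level of 12 immediate early genes was also highest in control 3 among the controls, at 47.6 against 31.8 and 37.0 in units of the array's 75th percentile. A sum weighs bright probes most, and the single genes differed. Among the controls Dusp1 (3.81) and Junb (3.70) were highest in control 3, while Egr1 (-0.81), Jun (1.86) and Klf6 (2.07) were lowest there. The part of the immediate early genes in the result was not tested.

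**Figure D2:**
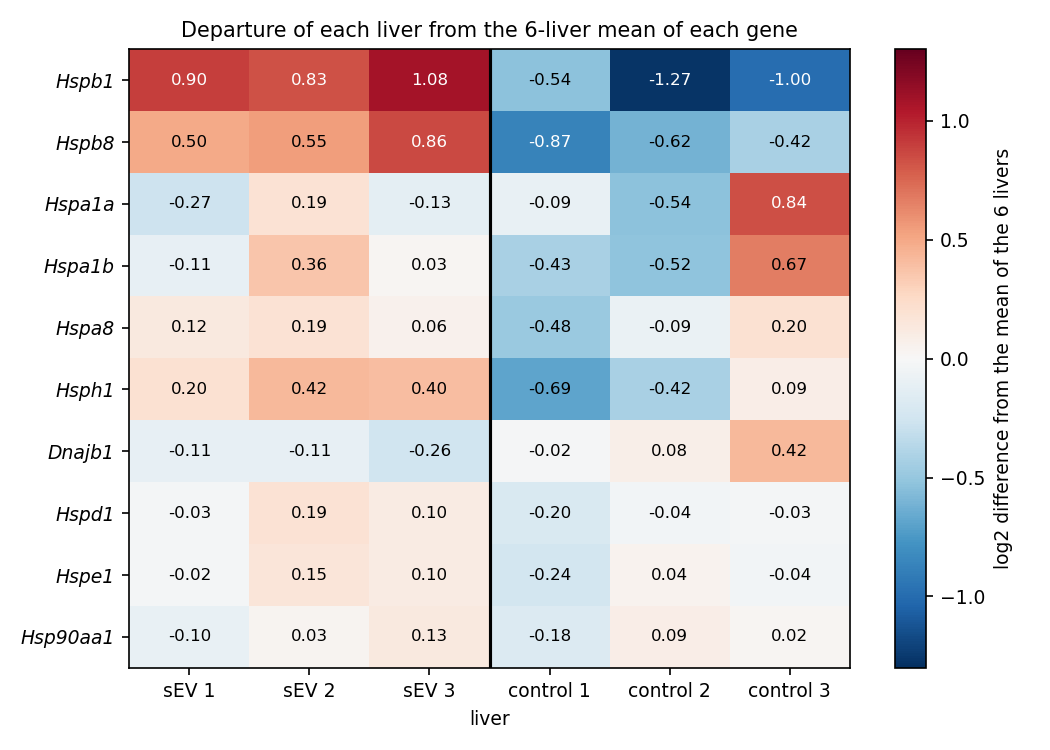
Log2 departure of each liver (columns, sEV livers left of the line) from the mean of the 6 livers for each heat shock gene (rows), in red above and blue below that mean. The sEV columns are all positive for Hspb1, Hspb8, Hsph1 and Hspa8, and the control 3 column reaches 0.84 for Hspa1a and 0.67 for Hspa1b.

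Hspa8, the constitutive HSP70 that folds new proteins and uncoats clathrin vesicles, was read by 4 probes at separate places along the gene. Their sequences are shown because agreement between distinct stretches of 1 transcript bears on whether a reading is that of a single probe. They are credited to the array design and lie on the plus strand of mm9.
Hspa8, probe at chr9:40610620-40610679: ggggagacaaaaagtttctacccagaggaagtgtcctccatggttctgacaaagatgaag
Hspa8, probe at chr9:40611362-40611421: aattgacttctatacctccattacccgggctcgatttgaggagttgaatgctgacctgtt
Hspa8, probe at chr9:40611841-40611900: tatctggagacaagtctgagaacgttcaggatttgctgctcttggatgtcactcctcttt
Hspa8, probe at chr9:40612755-40613050: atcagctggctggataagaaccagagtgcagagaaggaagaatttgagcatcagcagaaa

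The last of these is the brightest and its placement spans 296 bases of the genome for 60 bases of probe. Its scaled log2 level was 7.53, 7.60 and 7.47 in sEV livers, against 6.93, 7.32 and 7.61 in control livers. The sEV livers were close together and control 3 lay above them, so the groups overlapped. Their difference was 0.25 on the log2 scale (95% interval -0.17 to 0.67, limma adjusted p = 0.361). In the fit over probes, the other 3 probes of Hspa8 had 0.34, 0.32 and 0.32 in the order printed, with adjusted p of 0.240, 0.267 and 0.222. All 4 differences thus lay between 0.25 and 0.34, and none passed. Without control 1 the value of the brightest probe was 0.07 (adjusted p = 0.733).

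Hsph1 encodes HSP110, a large relative of HSP70 that exchanges its nucleotide and helps to dissolve aggregates. Its brightest probe stood at 4.74, 4.95 and 4.93 in sEV livers, against 3.84, 4.11 and 4.62 in control livers. The groups did not overlap, with control 3 nearest to the sEV livers. The log2 fold change was 0.68 ± 0.20 with a 95% interval of 0.20 to 1.17, a 1.61-fold difference, which did not pass (limma adjusted p = 0.0666). Of its other probes, A_55_P2003513 gave 0.67 ± 0.19 (adjusted p = 0.0679 over probes) and also did not overlap between groups. The dim probe A_55_P2931347, well above background on all sEV arrays and on 1 of 3 control arrays, gave 0.74 ± 0.30 (adjusted p = 0.146). It met the filter through the sEV arrays, so a rise of this probe was favoured by the filter.

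The call on Hsph1 turned on the processing. It passed with normexp background correction (log2 fold change 0.63, limma adjusted p = 0.0399), with a mean-variance trend (0.68, adjusted p = 0.0346) and without control 3 (0.90, adjusted p = 0.0230). With slide row as a block it was 0.54 (adjusted p = 0.343). Without control 3, Hspb1, Hspb8 and Hsph1 made 3 genes that passed. All 3 Hsph1 probes were then among 5 probes that did. The dim one of them had met the filter through the sEV arrays, so it is not read as a further agreeing probe.

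Dnajb1, the J-domain protein that delivers clients to inducible HSP70, was the other gene with no overlap in the HSP70 machine, and its values lay on the lower side. Its scaled log2 level was 4.84, 4.84 and 4.68 in sEV livers, against 4.93, 5.02 and 5.37 in control livers. All sEV livers lay under all control livers by a narrow margin. Its log2 fold change of -0.32 ± 0.13 (95% interval -0.64 to 0.000699) did not pass (limma adjusted p = 0.149), and adjusted p ranged from 0.0817 to 0.507 over 18 alternatives. Hspa1a and Dnajb1 were the 2 genes of the 10 with negative values.

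Hspd1 and Hspe1 encode the chaperonin of the mitochondrial matrix and its lid. Hspd1 stood at 7.39, 7.60 and 7.52 in sEV livers, against 7.22, 7.38 and 7.39 in control livers. Hspe1 stood at 7.25, 7.43 and 7.38 in sEV livers, against 7.04, 7.32 and 7.24 in control livers. Control 1 was lowest and sEV 2 highest for both genes, and the groups were just separate for Hspd1 and overlapped for Hspe1. Differences on the log2 scale were 0.17 for Hspd1 (95% interval -0.06 to 0.41, limma adjusted p = 0.256) and 0.16 for Hspe1 (95% interval -0.10 to 0.41, adjusted p = 0.347). The upper bounds of both intervals are under a change of 1.5-fold on this scale.

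The second Hspd1 probe, A_55_P2846649, gave a log2 fold change of 0.15 (limma adjusted p = 0.562 over probes). Hspe1 probe A_66_P124339 gave 0.18 (adjusted p = 0.306). Hspe1 probe A_55_P1953063 gave -0.16 (adjusted p = 0.764), with scaled log2 levels of 1.93, 3.15 and 2.88 in sEV livers, against 2.51, 2.99 and 2.97 in control livers. Its sign rested on sEV 1, without which it was 0.20 (adjusted p = 0.515), and with slide row as a block it was -0.89 (adjusted p = 0.123). Its placement spans 327 bases of the genome, at chr1:55147620-55147946 of mm9.

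Hsp90aa1, the stress-responsive cytosolic HSP90, had scaled log2 levels of 6.0, 6.13 and 6.22 in sEV livers, against 5.92, 6.18 and 6.12 in control livers. The groups overlapped, with sEV 3 highest and control 1 lowest, and of the 10 genes it had the fold change nearest to 0. Its difference was 0.04 on the log2 scale (95% interval -0.22 to 0.30, limma adjusted p = 0.802), and probe A_55_P2740832 gave 0.10 (adjusted p = 0.682 over probes). Its sign turned negative under median scaling (-0.03) and in 6 other alternatives.

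**Figure D3:**
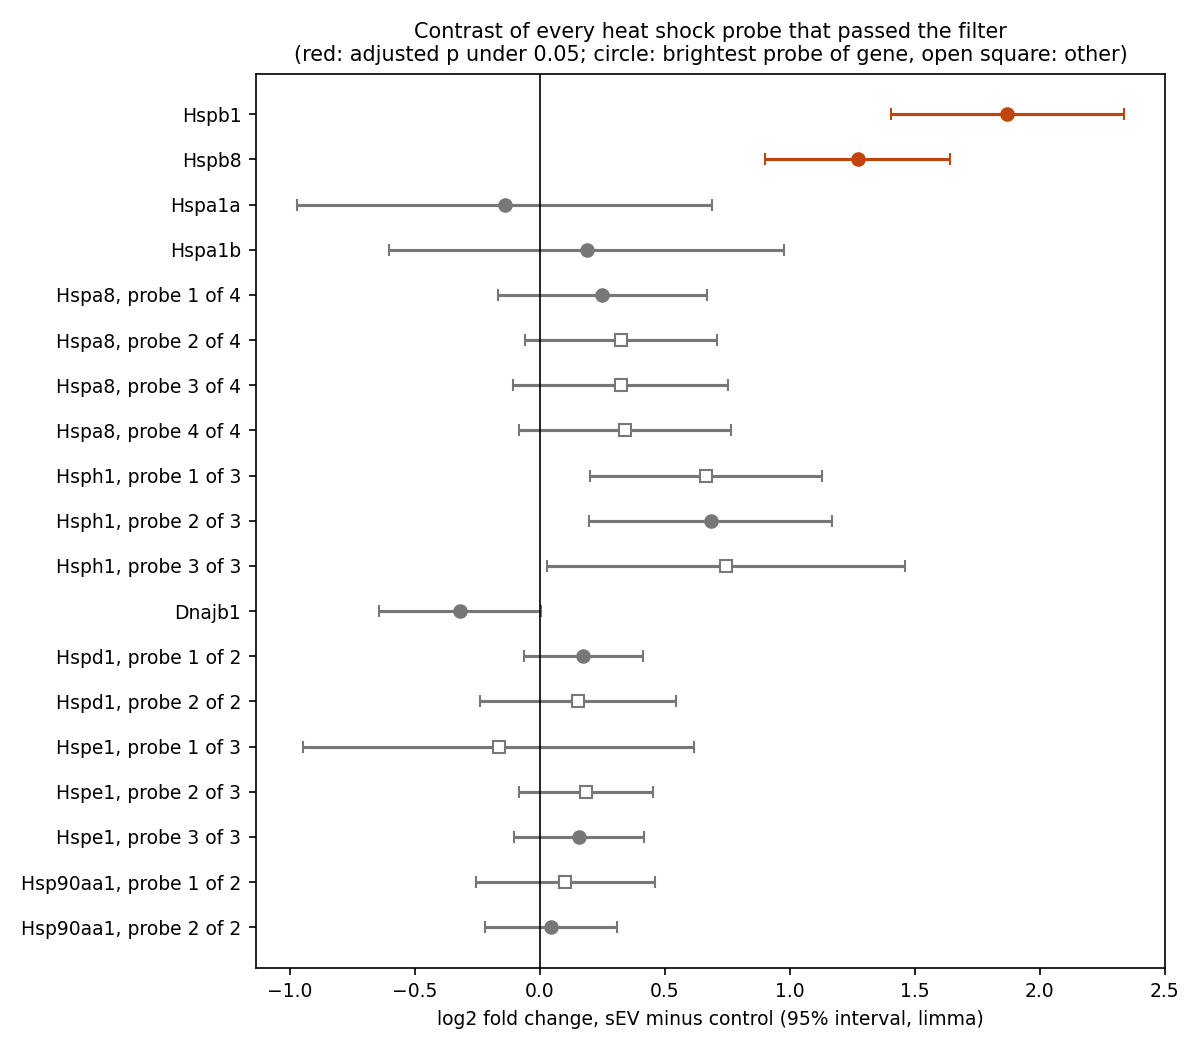
Log2 fold change of sEV over control livers (horizontal axis) with its 95% interval from limma for each of the 19 heat shock probes that passed the filter (rows), circles for the brightest probe of a gene and open squares for others. The probes of Hspb1 and Hspb8 are in red as past the threshold, and the 4 Hspa8 probes lie between 0.25 and 0.34. The intervals of the 3 Hsph1 probes lie above 0 without passing the adjusted threshold. The dim Hsph1 probe met the filter through the sEV arrays.

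Of the other genes of the chaperone and stress system, 104 were tested in 11 lists, each gene counted once, and 12 of them (11.5%) passed, against 17.0% of all genes. The counts of the single lists that follow are read against 9.08% of all genes higher and 7.95% lower. Of 6 genes of heat shock factors and associated proteins, 1 rose and 0 fell. Hsf1, the master regulator of the response, stood at 1.82, 1.99 and 1.91 in sEV livers, against 1.48, 1.49 and 1.60 in control livers, a log2 fold change of 0.39 ± 0.09 (limma adjusted p = 0.0297). The livers did not overlap, but the call held in 8 of 18 alternatives and was lost without sEV 2 (adjusted p = 0.0901), sEV 3 (0.0839), control 1 (0.0885), control 2 (0.0836) or control 3 (0.0662). Hsf2, named after its value was seen, had -0.42 ± 0.11 and did not pass (adjusted p = 0.0516). Of the 16 other HSF1 targets 0 rose and 1 fell, and their median was 0.10. The gene that fell was Serpinh1, the collagen chaperone of the endoplasmic reticulum, at 0.65, 0.68 and 0.71 in sEV livers, against 1.83, 1.61 and 1.40 in control livers. Its log2 fold change was -0.93 ± 0.12 (adjusted p = 0.00721), and it was -0.31 (adjusted p = 0.277) when all probes of the gene were averaged. The Serpinh1 call was lost in 3 of 18 alternatives, that one included.

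Markers of stellate cells, which make collagen, are given beside Serpinh1. Of 8 markers, 4 fell and 0 rose, against 7.95% of all genes lower and 9.08% higher. Those that fell were Col3a1 at -1.89, Col1a1 at -2.04, Lrat at -1.09 and Ngfr at -0.73. The other 4 did not pass, with values from -0.41 to 0.30. The summed level of the 8 markers was 79.7 to 111 in sEV livers against 109 to 156 in control livers in units of the array's 75th percentile. These sums overlapped, with sEV 1 and sEV 3 above control 3. A sum weighs bright probes most, and this one is led by Dcn, which did not pass (-0.21). The groups did not overlap for any of the 4 markers that fell. In whole liver, fewer cells of a type and less RNA per cell cannot be told apart. The part of these cells in the Serpinh1 result was not tested.

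In the remaining HSP70 system, 6 of 45 genes tested passed (13.3%, against 17.0% of all genes), 3 higher and 3 lower. Of 10 measured HSP70 relatives 1 rose and 1 fell, with a median of -0.28. Hspa2, an HSP70 best known from testis, rose by 0.76 ± 0.19, and Hspa14, a ribosome-associated relative, fell by 0.39 ± 0.09 (limma adjusted p = 0.0427 for Hspa2 and 0.0394 for Hspa14). Each call was lost in 9 of 18 alternatives, including without sEV 1, without sEV 3 and without any 1 control liver, with adjusted p from 0.0747 to 0.119 for Hspa2 and from 0.0849 to 0.113 for Hspa14. Of 23 J-domain proteins 0 rose and 1 fell, Dnajc10, a disulfide reductase of the endoplasmic reticulum, by 0.54 ± 0.08 (adjusted p = 0.00851). That call was lost in 4 of 18 alternatives. Among them were all probes of the gene averaged (-0.65, adjusted p = 0.0885), no filter on dim probes (adjusted p = 0.0598) and slide row as a block. Of 12 exchange factors and partners 2 rose and 1 fell. Grpel2, a mitochondrial exchange factor, fell by 0.84 ± 0.15 (adjusted p = 0.0197). This call was lost in 7 of 18 alternatives. They included no filter on dim probes (adjusted p = 0.0763) and leaving out sEV 2 (0.0558), control 1 (0.0664) or control 2 (0.0616). The BAG-domain genes Bag5 and Bag4 rose by 0.33 ± 0.08 and 0.29 ± 0.08 (adjusted p = 0.0441 for Bag5 and 0.0474 for Bag4), and both calls were lost without any 1 of the 6 livers, with adjusted p from 0.0740 to 0.125 for Bag5 and from 0.0966 to 0.147 for Bag4.

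Among 14 members of the HSP90 family and its co-chaperones 1 rose and 0 fell. Fkbp5, a co-chaperone of steroid receptors that glucocorticoids induce, stood at 5.0, 4.55 and 4.71 in sEV livers, against 3.59, 3.67 and 3.99 in control livers. Its log2 fold change was 1.0 ± 0.16, a 2.0-fold difference (limma adjusted p = 0.0131), a call that was lost with no filter on dim probes (adjusted p = 0.0533) and within slide row 1 (adjusted p = 0.0545). None of 6 measured small heat shock proteins outside Hspb1 and Hspb8 passed, with values from -0.58 for Hspb2 and -0.28 for Hspb11 to 0.46 for Hspb9 and 0.58 for Hspb7. Hspb7 was well above background on 2 of 3 arrays of each group, and without sEV 3 its value was -0.38. Cryaa and Hspb3, as well as Hspa1l of the HSP70 family, did not pass the filter.

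None of 8 subunits of the cytosolic chaperonin TRiC passed, from -0.19 for Cct6a and -0.18 for Tcp1 to 0.06 for Cct3 and 0.08 for Cct7, the last pair with signs that turn under some alternatives. Genes of the endoplasmic reticulum chaperones and of the unfolded protein response had a median of -0.23, and of 18 measured 0 rose and 2 fell. Ddit3, which encodes the stress transcription factor CHOP, stood at -0.56, -0.51 and -0.72 in sEV livers, against 0.46, 0.19 and 0.73 in control livers. Its log2 fold change was -1.06 ± 0.15 (limma adjusted p = 0.00935). The Ddit3 call was lost in 2 of 18 alternatives, with slide row as a block and within row 1. Pdia6, a disulfide isomerase, fell by 0.44 ± 0.10 (adjusted p = 0.0317), a call that was lost without any 1 of the 6 livers (adjusted p from 0.0620 to 0.0867). Of 10 mitochondrial chaperones and proteases 1 rose, Clpx, the unfoldase of a matrix protease, by 0.69 ± 0.12 (adjusted p = 0.0166). This call was lost in 5 of 18 alternatives. They included no filter on dim probes (adjusted p = 0.0731) and leaving out sEV 2 (0.0502) or control 1 (0.0553). The cold-induced genes Cirbp (-0.26) and Rbm3 (0.05) did not pass, and both signs turned when all probes of the gene were averaged. Of the 12 genes that passed among the 104 tested, 6 were higher and 6 lower, against 2 higher and 6 lower with arrays scaled to their median. With slide row as a block 1 passed.

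**Figure D4:**
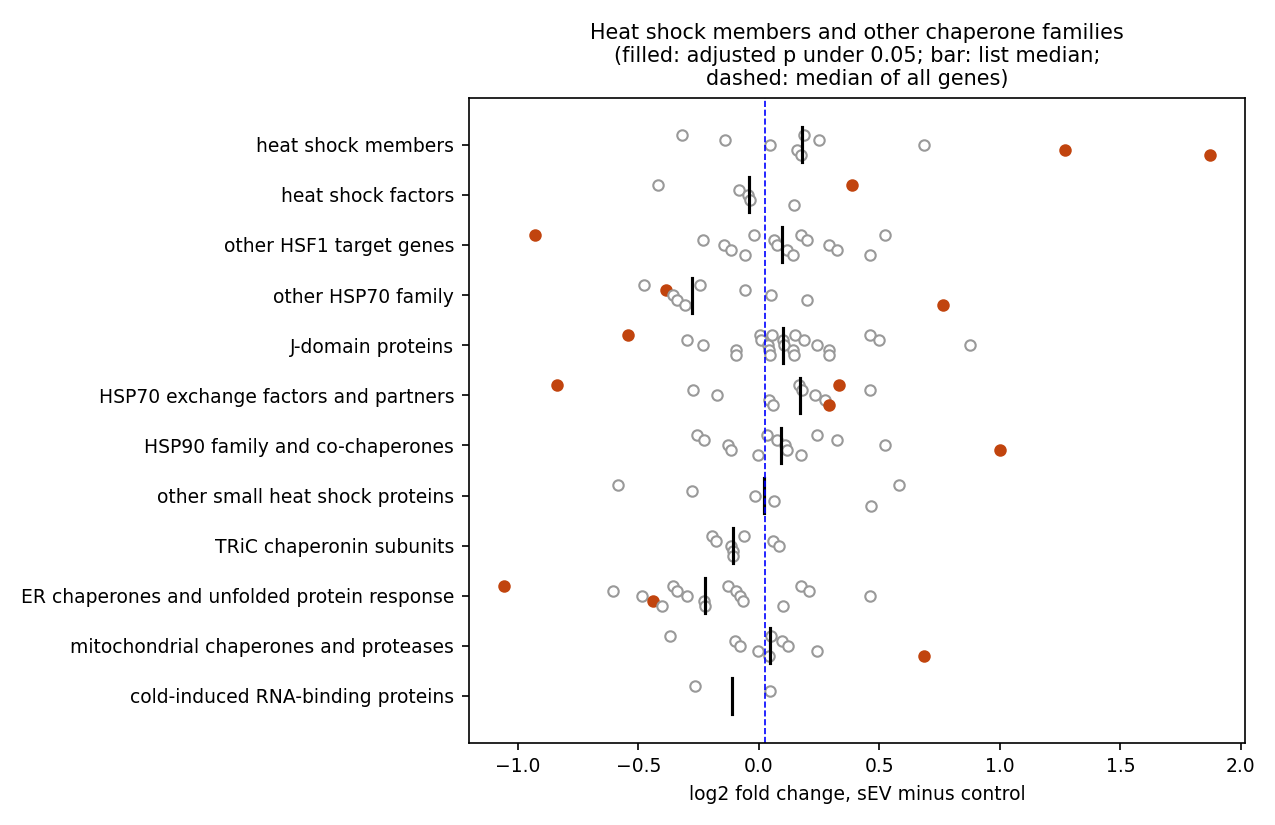
Log2 fold change of sEV over control livers (horizontal axis) for each measured gene of 12 chaperone and stress lists (rows), filled in red where the adjusted p was under 0.05, with the median of each list as a bar and the median of all genes as a dashed line. Hspb1 and Hspb8 are the 2 points farthest to the right among the heat shock genes, and Fkbp5 at 1.0 and Ddit3 at -1.06 are the outermost filled points of the other lists.

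Markers of other cells and of other stress programmes were read in the same livers, where 9.08% of all genes rose and 7.95% fell. Acute phase genes rose for 10 of 12 measured, and their summed level in units of the array's 75th percentile was 8498 to 11151 in sEV livers against 3708 to 4624 in control livers. Neutrophil markers rose for 6 of 8, with sums of 113 to 192 in sEV livers against 41.4 to 71.8 in control livers. Ltf (1.19, limma adjusted p = 0.0744) and Ly6g (-0.07, adjusted p = 0.779) did not pass. Kupffer cell markers rose for 6 of 9, with sums of 155 to 173 in sEV livers against 101 to 137 in control livers. Endothelial markers rose for 0 of 7 and fell for 0, with overlapping sums of 53.3 to 66.7 in sEV livers against 54.7 to 80.7 in control livers. Erythroid markers fell for 4 of 7, with overlapping sums of 16.2 to 47.1 in sEV livers against 44.5 to 57.8 in control livers. The erythroid sum is led by Hbb-b1 and Alas2, which did not pass. Among the erythroid markers, Ahsp was well above background on 1 sEV array and on 3 control arrays. All 12 cell cycle genes fell, with sums of 2.93 to 4.12 in sEV livers against 48.2 to 60.1 in control livers. Several of them passed the filter only through the control livers. Aurkb, for example, was well above background on 0 sEV arrays and on 3 control arrays. For such genes a fall was built in by the filter. Immediate early genes, which also respond to handling of tissue, rose for 4 of 12 and fell for 1, with sums of 55.4 to 68.4 in sEV livers against 31.8 to 47.6 in control livers. Junb rose by 1.54, Btg2 by 1.06 and Ier2 by 0.50, and Jun fell by 0.55 on the log2 scale. The part of these markers in the rise of Hspb1 and Hspb8 was not tested.

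The mean profile of the 10 genes, each centred on its own mean, stood at 0.11, 0.28 and 0.24 in sEV livers, against -0.37, -0.33 and 0.08 in control livers. On this mean control 3 lay near the sEV livers and controls 1 and 2 lay lower, but the mean joins opposite departures. For Hspb1 (-0.995) and Hspb8 (-0.42), the genes that rose, control 3 lay well under the sEV livers. For Hspa1a (0.84), Hspa1b (0.67), Dnajb1 (0.42) and Hspa8 (0.20) it lay above all of them. The 5 named genes with the smallest root-mean-square difference from that profile over the 6 arrays were Krtap4-16 (0.0473), which encodes a keratin-associated protein, Lypd6 (0.0601), Msx2 (0.0607), a homeobox gene, Slc39a2 (0.0617), a zinc transporter gene, and Swt1 (0.0645). None of them passed the test between groups, with adjusted p from 0.0616 for Msx2 to 0.175 for Lypd6. The likeness describes these 6 arrays only.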

How the data were processed

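Liver RNA of 6 mice, 3 per group by the treatment label, was labelled with Cy3 and hybridised to 1 Agilent 1-colour array each, per the labels' protocols. Per the submitters' processing notes, the software was Agilent Feature Extraction 10.7.1.1. The deposited intensity is its processed signal: per the file headers, background was subtracted, spatial trends were removed, low values became surrogates and arrays were not scaled to each other. A table of the authors' own log2 values served as an alternative, and how that table was made is not given in the labels or headers used here.

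From these, control spots and outlier spots (97 to 171 on sEV arrays, 91 to 119 on control arrays) were left out, no other spot was saturated, spots of 1 probe were averaged, and log2 of the signal minus log2 of the array's 75th percentile was taken. Probes were kept where 3 or more of the 6 arrays read them well above background. Groups were compared with limma 3.58.1 (lmFit and eBayes, no covariates) in R 4.3.3, adjusted over all genes or all probes. The fit was tested on simulated data. Each sample is labelled as 1 liver, and arrays of 1 group correlated at 0.991 to 0.995 across genes. Arrays sharing a replicate number deviated together at r of 0.02, 0.16 and 0.02, which did not make them pairs. All arrays shared 1 slide and 1 scan. Named were all 10 genes with every probe, of each other list up to 4 genes past the threshold by size of the moderated t, otherwise the 2 highest and 2 lowest fold changes, Alb, and the 5 genes of closest profile. Hsf2, Bag3, Dnaja1, Chordc1, Cryab, Dusp1, Egr1, Klf6, Dcn, Hbb-b1, Alas2, Ltf and Ly6g were chosen after their values were seen. The 10 genes and all lists were chosen with earlier results of these data known. Figures were drawn with matplotlib 3.10.9.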

Additional observations from a re-analysis of the deposited data

How the results depend on the processing

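The rise of Hspb1 and Hspb8 kept its direction in all 18 alternatives, and its calls ended only with slide row as a block (Hspb8) and within row 1 (both). The number of heat shock genes called was 1 with slide row as a block and 0 within row 1, and 2 to 3 without each liver in turn. The number of probes called was 4 with normexp and with a mean-variance trend, 1 with the row block and 0 within row 1, and 2 to 5 without each liver. Of the other chaperone lists, 2 genes passed with no filter on dim probes, 1 with the row block, 0 within row 1, and 4 to 8 without each liver, against 12. Over all genes 810 passed with no filter, 715 with the row block, 594 within row 1 and 1349 to 2767 without each liver, against 3313. With the replicate number as a block, 2 heat shock genes, 2 probes and 2210 genes in all passed, and 7 in the other lists. Higher calls made up 53.3% of all calls, against 36.8% with median scaling, 40.2% with no filter, 35.1% with the row block and 29.3% within row 1.

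Signs turned for values that passed in neither direction. With slide row as a block and within row 1, Hsp90aa1 was -0.0751, its probe A_55_P2740832 -0.0763, Hspa1b -0.0159, Cct3 -0.191, Cct7 -0.0345 and Rbm3 -0.00638. With median scaling Hsp90aa1 was -0.0330, Cct3 -0.0176 and Rbm3 -0.0322. Hsp90aa1 was -0.00437 with quantile normalization and -0.00491 in the authors' value table. With probes averaged Rbm3 was -0.214 and Cirbp 0.00226. Without each liver in turn the values ranged from -0.0325 to 0.104 for Hsp90aa1, from -0.0218 to 0.189 for its probe A_55_P2740832, from -0.0284 to 0.568 for Hspa1b, from -0.444 to 0.245 for Hspa1a, from -0.414 to 0.198 for Hspe1 probe A_55_P1953063, from -0.376 to 1.29 for Hspb7, from -0.00639 to 0.185 for Cct3 and from -0.0488 to 0.183 for Rbm3. The cause of these changes was not tested. Over 41 single values and their alternatives, 601 kept direction and side of the threshold, 87 lost the call, 8 gained it and 31 turned sign. With 3 livers per group, groups of this size are too small for a check of single livers far from the rest.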
